A study of Trichoderma atroviride IMI 206040 with 36 samples.

Results

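The deposited table holds 11863 predicted transcripts of *Trichoderma atroviride* IMI 206040. Of these, 9 were higher by a set margin in every Δenv-1 library than in any WT library, and passed a minimum level. This held in darkness as well as 30 min after a pulse of blue light. Without the margin, 35 genes passed. The 9 genes were chosen on the measured values themselves. The level of each gene was expressed as CPM (counts scaled to a column total of 1000000), 0.5 was added, and a gene was kept where the lowest of the 6 Δenv-1 libraries exceeded the highest of the 6 WT libraries by at least 25%, with a mean of at least 5 CPM in the Δenv-1 mutant. Mean levels of at least 5 CPM in the Δenv-1 mutant were found for 7795 genes, so the 9 are a small part of the genes that could have met the rule. The difference between the Δenv-1 mutant and the WT strain is therefore a description, and no test of it is given. What the rule did not use are the 12 libraries of the Δblr-1 and Δblr-2 mutants. The change with light in Δenv-1 and WT is not independent of it, because a gene that changes strongly with light in either strain is less likely to keep all 6 Δenv-1 libraries above all 6 WT libraries.

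The libraries were made from mycelium grown for 36 h on potato dextrose agar covered with cellophane, and each strain was sampled in 3 replicates kept in darkness and 3 replicates taken 30 min after 200 μmol⋅m–2 of blue light. The groups were the Δenv-1 mutant, in which the env-1 reading frame was replaced by a hygromycin resistance gene in 1 transformant used for sequencing, the Δblr-1 and Δblr-2 mutants, labelled only as mutants of those genes, and the WT strain, which is the parent of the Δenv-1 mutant. The labels give the replicates as biological replicates and name no day or batch.

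Filamentous fungi sense blue light through a complex of GATA-type transcription factors, called White Collar in *Neurospora crassa* and BLR in *Trichoderma*. BLR-1 carries the flavin-binding LOV domain and BLR-2 is its partner. ENVOY, the product of env-1, is a small LOV protein related to VIVID of *N. crassa*, which is induced by light and dampens the response of the complex during continued illumination. In *T. atroviride* light triggers the formation of conidia, the asexual spores, and the BLR proteins are needed for that response.

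Total counts ranged from 1519260 to 22011847 in the 24 libraries, with a median of 8148941. A gene was read as not detected in a group where none of its libraries had more than 3 counts. A count of 3 corresponds to between 0.136 and 1.97 CPM over these libraries, for counting error only. All 9 genes passed the filter on low counts of the model used for the tests below. The submitters' notes say that the Δenv-1 darkness library of replicate 3 was not used for their tests because it varied more than the others. It took part in the rule but not in that model, so fitted values for Δenv-1 in darkness rest on 2 libraries. In the summed level of the conidiation genes given below it was replicate 2, at 26.9 CPM, that stood apart from replicates 1 and 3, at 782 and 971 CPM. The deleted gene itself (env-1, Id. 150699) is not among the 9. Its transcript was still counted in the Δenv-1 mutant, at 240 to 296 CPM in light and 28.9 to 33.5 CPM in darkness, against 106 to 112 CPM in light and 1.74 to 2.10 CPM in darkness in the WT strain. Only the reading frame was replaced and reads still align outside it, so these levels do not check its label.

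None of the 9 genes has a description in the study's gene tables, and none is among the 267 genes that those tables or the lists of photoreceptor, clock, DNA metabolism, sulfur and serine, conidiation and light reporter genes name. The genes are therefore given by their Id. in the IMI 206040 gene set. The model names in the table place Id. 299597 and Id. 299986 on contig 24, Id. 210245 and Id. 179057 on contig 10, Id. 220212 on contig 23, Id. 297969 on contig 18 and Id. 301255 on contig 26. A RefSeq table of another strain, P1 (ASM2064779v1), holds a gene with the same Id. for 8 of the 9 and for 10686 of the 11863 transcripts. It was used only for which genes lie next to each other, and it gives no product names.

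The ratio that the rule used, of the lowest Δenv-1 to the highest WT library, ran from 5.59 for Id. 299597 to 1.30 for Id. 301255. It was 2.0 for Id. 299986, 1.87 for Id. 210245, 1.70 for Id. 53983, 1.5 for Id. 220212 and 1.49 for Id. 297969. The 3 genes just inside the threshold were Id. 179057 at 1.45, Id. 94294 at 1.39 and Id. 301255 at 1.30. The 3 just outside were Id. 152183 at 1.18, Id. 53468 at 1.17 and Id. 288710 at 1.17. The number of genes depended on the scaling and on 1 library. With library sizes scaled by the trimmed mean of M-values (TMM), 14 genes met the rule, and without the WT darkness library of replicate 2, 15 did, in both cases with all 9 among them.

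**Figure D1:**
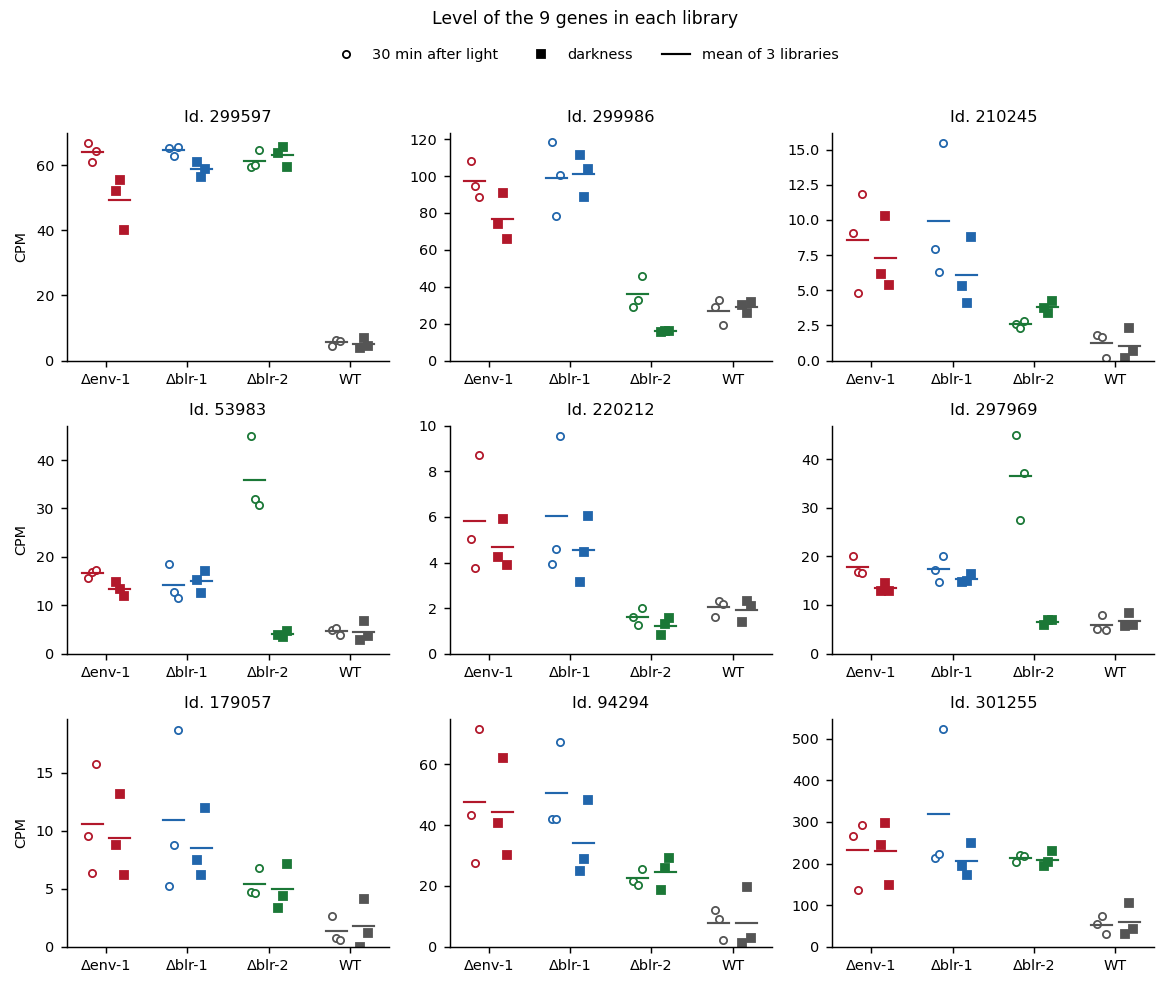
Level of each of the 9 genes in CPM (vertical axis from 0) in the 24 libraries, by strain. Open circles are libraries taken 30 min after blue light, filled squares those kept in darkness, and bars the mean of 3 libraries. Id. 299597 sits between 40.2 and 66.9 CPM in all 3 mutants and between 4.0 and 6.78 CPM in WT, whereas Id. 53983 and Id. 297969 are near the WT level in the Δblr-2 mutant in darkness and far above it after light.

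Id. 299597 had the widest gap. In the Δenv-1 mutant its level was 66.9, 61.1 and 64.5 CPM in light and 52.2, 55.4 and 40.2 CPM in darkness, against 4.59, 6.25 and 5.90 CPM in light and 4.0, 6.78 and 4.44 CPM in darkness in the WT strain. The fitted log2 fold change was 3.51 ± 0.11 (SE) in light and 3.46 ± 0.13 in darkness, a difference of about an order of magnitude. It rests on libraries that chose the gene, and the rule itself required that no Δenv-1 and WT libraries overlap. Replicates of the gene were close to each other, with at most 1.69 times between the highest and the lowest library of any group.

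Id. 299986 had 108, 94.4 and 88.8 CPM in Δenv-1 light and 74.3, 90.6 and 65.9 CPM in Δenv-1 darkness, against 29.2, 32.6 and 19.4 CPM in WT light and 30.3, 25.9 and 31.6 CPM in WT darkness. Id. 53983 averaged 16.6 ± 0.84 CPM in Δenv-1 light and 13.4 ± 1.5 in Δenv-1 darkness, against 4.62 ± 0.77 in WT light and 4.43 ± 2.1 in WT darkness (SD, n = 3 each). Id. 297969 averaged 17.8 ± 2.0 and 13.4 ± 1.0 CPM in the same Δenv-1 groups, against 5.97 ± 1.8 and 6.66 ± 1.5 CPM in the WT groups. Id. 299986 and Id. 297969 varied by at most 1.68 and 1.67 times between the replicates of a group, and Id. 53983 by at most 2.44 times, in WT darkness.

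Of the other 5 genes, 4 varied more than these between replicates of a group, by up to 14.1 times for Id. 94294, 13.3 for Id. 210245, 4.63 for Id. 179057 and 3.40 for Id. 301255. The value of Id. 179057 leaves out WT darkness, where replicate 1 had 0 counts and replicate 2 had 4.10 CPM. That of Id. 210245 rests on a WT darkness library with 1 count. Id. 94294 had 43.4, 27.6 and 71.5 CPM in Δenv-1 light and 40.7, 62.0 and 30.1 CPM in Δenv-1 darkness, against 12.1, 9.18 and 2.26 CPM in WT light and 1.39, 19.6 and 2.80 CPM in WT darkness. The WT darkness library of replicate 2 was thus 14.1 times that of replicate 1 and came closest to the Δenv-1 libraries. Id. 301255, at 136 to 296 CPM in the Δenv-1 mutant against 29.6 to 104 CPM in WT, had its highest WT level in that same library. So did Id. 210245, at 4.78 to 11.8 CPM in Δenv-1 against 0.174 to 2.32 CPM in WT, and Id. 179057, at 6.18 to 15.7 CPM in Δenv-1 against 0 to 4.10 CPM in WT. Id. 220212, which varied by at most 2.42 times, was at 3.74 to 8.73 CPM in Δenv-1 against 1.39 to 2.32 CPM in WT. Its highest WT level, 2.32 CPM, was again in WT darkness replicate 2. That library also held the highest WT level of Id. 299597 (6.78 CPM), Id. 53983 (6.78 CPM) and Id. 297969 (8.39 CPM). Of the 9 genes only Id. 299986 had its highest WT level elsewhere, at 32.6 CPM in WT light replicate 2.

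Several of the 9 genes shared the library in which they were highest. In each of the 8 groups of 3 replicates the library with the highest level of Id. 94294 was also the highest for Id. 210245 and for Id. 179057, and in 7 of the 8 it was the highest for Id. 220212. Among the other genes with at least 5 CPM, 1.66% shared the highest library with Id. 94294 in at least 7 of the 8 groups. Id. 301255 did so in 6 groups, as did 7.7% of genes in at least 6. The remaining 4 genes did so in 3 to 5 groups. The lowest library was shared with Id. 94294 in 6 of the 8 groups for Id. 210245, Id. 179057 and Id. 220212. It was shared in 5 groups for Id. 301255 and in 3 to 6 for the remaining 4 genes. The full order of replicates was thus not shared in every group.

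Conidiation genes moved with the same libraries in part. The summed level of 7 conidiation genes (3 hydrophobins, 2 pigment polyketide synthases, a multicopper oxidase and the conidiospore surface protein cmp-1) was 19.5 to 49.6 CPM in Δenv-1 light and 26.9 to 971 CPM in Δenv-1 darkness, against 41.3 to 592 CPM in WT light and 73.9 to 630 CPM in WT darkness. In the Δblr-1 mutant it was 20.4 to 61.2 CPM and in the Δblr-2 mutant 25.9 to 32.7 CPM over both treatments, and each of the 7 genes was detected in every group. All 7 were lower in Δenv-1 than in WT in light (edgeR quasi-likelihood test, adjusted p at most 0.05), where 8.81% of all genes were lower, as they were in Δblr-1 against WT in light, where 13.9% were, and none passed the test in Δenv-1 against WT in darkness. In Δblr-1 against WT in darkness 2 of the 7 were lower, where 552 of the 9605 genes tested were. With the replicate number as a block in the model, all 7 were lower there. In WT darkness the replicate with the lowest conidiation sum, 73.9 CPM, was the one with the highest Id. 94294, and in Δenv-1 darkness the replicate with the lowest sum, 26.9 CPM, again had the highest Id. 94294. The order held in Δblr-2 darkness but not in Δblr-1 darkness. There the replicate with the highest sum, 61.2 CPM, also had the highest Id. 94294, at 48.4 CPM. It held in no strain in light, where the highest Id. 94294 in the Δenv-1 mutant came with the highest conidiation sum of that group. The part of conidiation in the levels of the 9 genes was not tested. In whole mycelium, fewer cells of a kind and less RNA per cell cannot be told apart.

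**Figure D2:**
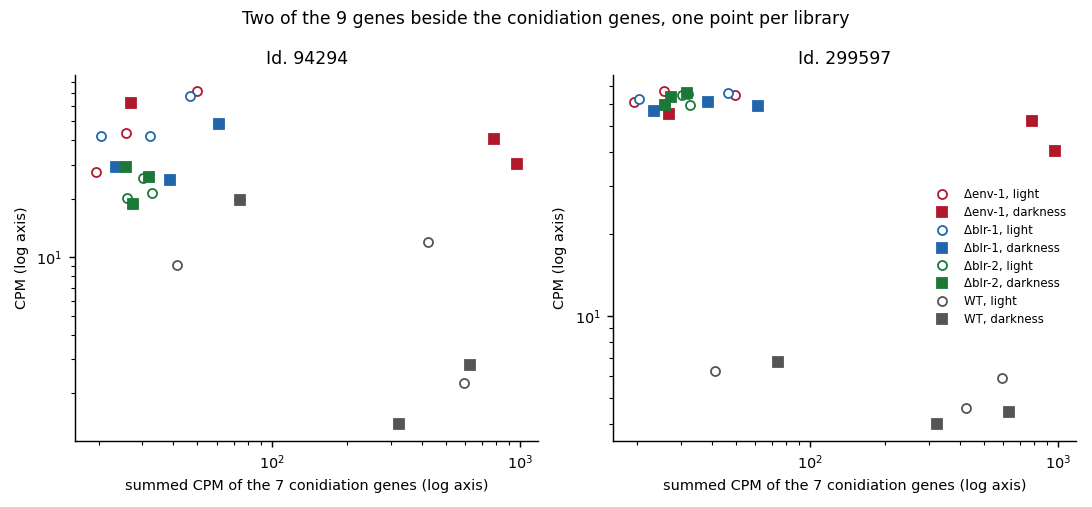
Level of Id. 94294 (left) and Id. 299597 (right) in CPM against the summed CPM of the 7 conidiation genes, both on log axes, with 1 point for each of the 24 libraries and colours for strains. For Id. 94294 the WT libraries spread between 1.39 and 19.6 CPM, whereas for Id. 299597 they stay between 4.0 and 6.78 CPM over the whole range of conidiation sums.

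The Δblr-1 mutant had the same genes at levels like those of the Δenv-1 mutant. Id. 299597 had 65.2, 62.8 and 65.7 CPM in Δblr-1 light and 60.9, 56.3 and 58.8 CPM in Δblr-1 darkness, and Id. 299986 had 118, 78.3 and 101 CPM in light and 111, 88.7 and 104 CPM in darkness. Every one of the 6 Δblr-1 libraries lay above every WT library for all 9 genes, which was the case for 4.41% of the 7795 genes with at least 5 CPM in the Δenv-1 mutant. The WT libraries in this comparison are those that the rule required to be low, so the values against WT are a description here too. In the model, all 9 genes were higher in Δblr-1 than in WT in light, where 11.9% of the 9605 genes tested were (edgeR quasi-likelihood test, adjusted p at most 0.05), and all 9 in darkness, where 3.84% were. The median log2 fold change of the 9 was 2.66 in light and 1.78 in darkness, while that of all genes was -0.01 in light and 0.00 in darkness. In darkness the count fell to 4 without WT replicate 1, to 5 without WT replicate 3 and to 5 without Δblr-1 replicate 3.

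Between the Δenv-1 and Δblr-1 mutants, none of the 9 genes passed the test in darkness, where the log2 fold changes of Δenv-1 over Δblr-1 ran from -0.21 to 0.68, or in light, where they ran from -0.51 to 0.29. No unadjusted p was below 0.05 in edgeR's quasi-likelihood or likelihood ratio test or in DESeq2, nor in the quasi-likelihood test with Δenv-1 darkness replicate 3 included or replicate 2 left out. Of all genes, 0.104% were higher and 0.187% lower in Δenv-1 in darkness, and 3.8% higher and 4.32% lower in light. For Id. 299597 the difference was -0.03 ± 0.09 (SE) in light and -0.05 ± 0.10 in darkness, and for Id. 299986 it was 0.00 ± 0.17 and -0.21 ± 0.18. The error was larger for Id. 179057, with -0.15 ± 0.50 in light and 0.48 ± 0.54 in darkness, and a p that misses the threshold does not show that the strains were alike. The Δenv-1 libraries had been chosen for high levels of these genes, and the comparison was added after the levels were seen.

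**Figure D3:**
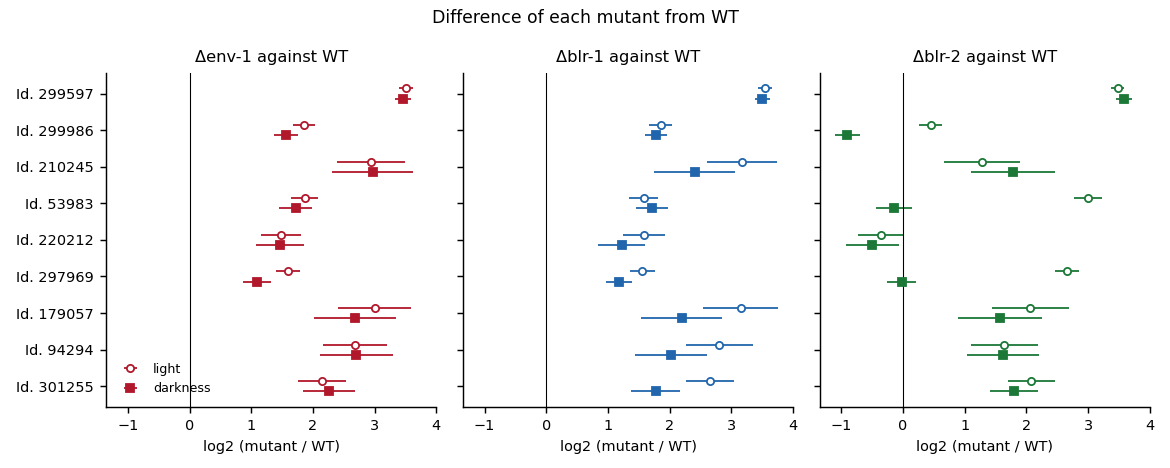
Fitted log2 fold change of the Δenv-1, Δblr-1 and Δblr-2 mutants against WT (horizontal axis) for the 9 genes, in light (open circles) and darkness (filled squares), with bars of 1 SE. All values of Δenv-1 and Δblr-1 are above 1, as the rule and the shared WT libraries favour, whereas in Δblr-2 they run from -0.90 to 3.59.

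The Δblr-2 mutant separated the genes. Its libraries and those of Δblr-1 took no part in the rule, so the comparison of Δblr-2 with Δblr-1 uses no library that chose the 9. All 9 were high in Δblr-1 as well, so the share over all genes is not a like background for them. Id. 299986 had 29.1, 32.9 and 45.8 CPM in Δblr-2 light and 15.4, 15.8 and 16.2 CPM in Δblr-2 darkness, all below the lowest Δblr-1 library at 78.3 CPM. The log2 fold change of Δblr-2 over Δblr-1 was -1.40 ± 0.18 in light (adjusted p = 1.76e-06) and -2.68 ± 0.19 in darkness (adjusted p = 2.68e-09). Id. 220212 was lower in the same way, at 1.24 to 1.99 CPM in Δblr-2 light against 3.95 to 9.57 CPM in Δblr-1 light and at 0.834 to 1.58 CPM in Δblr-2 darkness against 3.13 to 6.05 CPM in Δblr-1 darkness. The lowest of these, 0.834 CPM, was 2 counts, below the limit of 3. The log2 fold change of Id. 220212 was -1.94 ± 0.36 in light (adjusted p = 0.000208) and -1.72 ± 0.36 in darkness (adjusted p = 0.00174). For these 2 genes all 6 Δblr-2 libraries lay below all 6 Δblr-1 libraries, as they did for 6.95% of genes.

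In darkness 4 of the 9 were lower in Δblr-2 than in Δblr-1, against 8.22% of all genes, and none was higher. The other 2 of these were Id. 53983, with 3.75, 3.51 and 4.65 CPM in Δblr-2 against 15.3, 12.6 and 17.0 CPM in Δblr-1 (log2 fold change -1.86 ± 0.24, adjusted p = 8.85e-06), and Id. 297969, with 5.84, 6.83 and 6.93 CPM against 14.7, 14.9 and 16.3 CPM (-1.20 ± 0.20, adjusted p = 0.000195). In light 3 of the 9 were lower, against 18.5% of all genes, and 2 were higher, against 22.3%. The third lower one was Id. 210245, at 2.32 to 2.84 CPM in Δblr-2 against 6.32 to 15.4 CPM in Δblr-1 (-1.90 ± 0.52, adjusted p = 0.00604), whose adjusted p was 0.0604 without Δblr-1 light replicate 3. The 2 higher ones were Id. 53983 (1.42 ± 0.21, adjusted p = 1.66e-05) and Id. 297969 (1.11 ± 0.19, adjusted p = 5.98e-05), the same genes that were lower in darkness.

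Id. 299597 did not pass the test between the blr mutants. Its level was 59.3, 60.0 and 64.8 CPM in Δblr-2 light against 65.2, 62.8 and 65.7 CPM in Δblr-1 light, with a log2 fold change of -0.06 ± 0.09, and in darkness the value was 0.08 ± 0.09. The WT strain was thus the only strain of the 4 with a low level of this gene. Id. 301255 had 203 to 221 CPM in Δblr-2 light and 194 to 230 CPM in Δblr-2 darkness, again above every WT library. Id. 94294 and Id. 179057 had intermediate levels in Δblr-2, with averages over its 6 libraries of 23.5 ± 3.9 and 5.16 ± 1.5 CPM, against 42.3 ± 15 and 9.72 ± 5.0 CPM in Δblr-1 (SD, n = 6), and neither passed the test between the 2 mutants.

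Set against WT, whose low levels the rule fixed, 7 of the 9 were higher in Δblr-2 in light, where 24.8% of all genes were, and 2 were higher in darkness, where 8.31% were. Without WT light replicate 3 the count in light was 4. In darkness the 2 higher genes were Id. 299597 and Id. 301255. Id. 299986 was lower in Δblr-2 than in WT in darkness, at 15.4 to 16.2 CPM against 25.9 to 31.6 CPM (log2 fold change -0.90 ± 0.21, adjusted p = 0.00443), in the direction opposite to that of the other 2 mutants, as 6.39% of all genes were lower. The darkness count of 3 called genes rose to 6 without WT replicate 2 and to 5 without WT light replicate 3.

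Between light and darkness libraries 3 of the 9 genes were called, and only in the Δblr-2 mutant among the 4 strains tested. A light response was called where the adjusted p did not exceed 0.05 and the log2 fold change was at least 1 in size, which 6.01% of all genes reached upward and 1.36% downward in Δblr-2. Id. 53983 had 45.0, 31.9 and 30.7 CPM in Δblr-2 light against 3.75, 3.51 and 4.65 CPM in Δblr-2 darkness, a log2 fold change of 3.16 ± 0.23 (adjusted p = 1.12e-09). Id. 297969 had 44.9, 27.5 and 37.1 CPM in light against 5.84, 6.83 and 6.93 CPM in darkness, a log2 fold change of 2.47 ± 0.19 (adjusted p = 3.29e-09). In every Δblr-2 light library both were above all libraries of the other strains. Id. 299986 had 29.1, 32.9 and 45.8 CPM in light against 15.4, 15.8 and 16.2 CPM in darkness (1.21 ± 0.19, adjusted p = 4.51e-05), all still below every Δenv-1 and Δblr-1 library. Against WT in light, Id. 299986 was 0.45 ± 0.18 higher in Δblr-2 on the log2 scale (adjusted p = 0.0460), a call that was lost in 10 of 29 alternatives. The env-1 transcript, which was higher in light in WT, was at 0.438 to 1.08 CPM in Δblr-2 light and 0.834 to 1.38 CPM in Δblr-2 darkness. Whether the pulse or another difference between the Δblr-2 libraries raised the 3 genes was not tested.

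In the other 3 strains none of the 9 was called. The log2 fold changes with light ran from -0.32 to 0.29 in Δenv-1, where 0.968% of all genes were called higher and 0.312% lower, from -0.12 to 0.74 in Δblr-1, where 0.135% and 0.0625% were, and from -0.48 to 0.12 in WT, where 0.927% and 0.354% were. No member had an unadjusted p below 0.05 in these strains, in edgeR's quasi-likelihood or likelihood ratio test or in DESeq2, and 1 had in Δenv-1 with darkness replicate 3 included (adjusted p = 0.223). For Δenv-1 and WT the rule itself favours small changes, so these values are a description. Id. 299597, Id. 53983 and Id. 297969 had all 3 Δenv-1 light libraries above all 3 Δenv-1 darkness libraries, as did 25.8% of the genes with at least 5 CPM. For Id. 53983 the light response was 0.16 ± 0.23 in Δenv-1, -0.12 ± 0.22 in Δblr-1 and 0.01 ± 0.28 in WT.

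The difference between light responses was tested as an interaction. None of the 9 differed between Δenv-1 and WT, where 2 of all 9605 genes did, 0.0104% in each direction, with values from -0.11 to 0.50 and no unadjusted p below 0.05 in the same 3 tests. This comparison rests on libraries that chose the genes, by a rule that favours genes with little change in either strain, and is given as a description. Between Δblr-2 and WT 3 of the 9 differed, all with the larger response in Δblr-2, as did 11.6% of all genes. The differences were 3.15 ± 0.37 for Id. 53983 (adjusted p = 3.22e-06), 2.68 ± 0.30 for Id. 297969 (adjusted p = 1.90e-06) and 1.35 ± 0.27 for Id. 299986 (adjusted p = 0.00125). Between Δblr-2 and Δblr-1, where 10.2% of all genes differed in this direction, the same 3 genes had differences of 3.28 ± 0.32 (adjusted p = 4.37e-07), 2.31 ± 0.27 (adjusted p = 4.95e-06) and 1.27 ± 0.26 (adjusted p = 0.00153). The comparisons that involve the light response of Δblr-2 against other strains were added after its levels were seen.

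**Figure D4:**
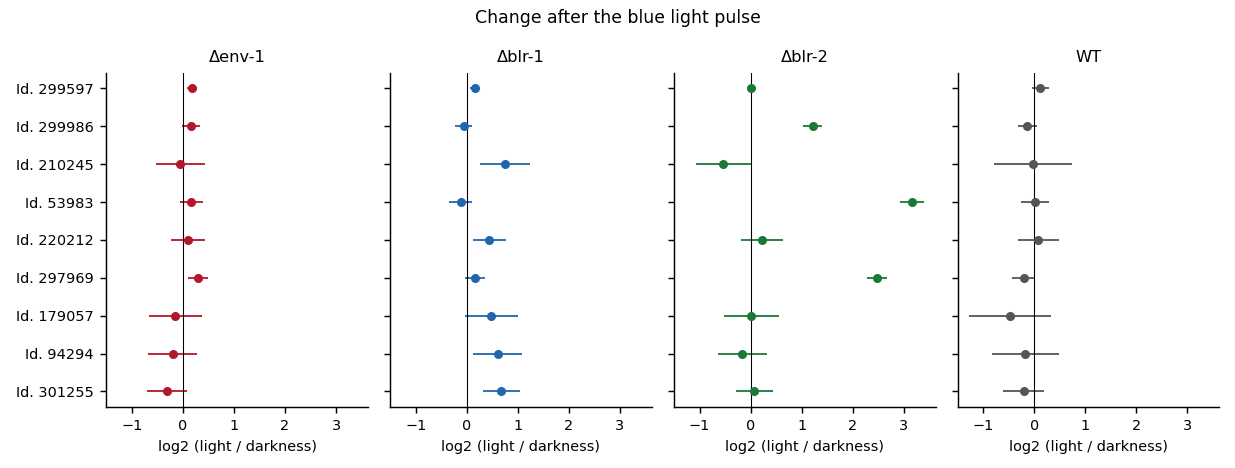
Fitted log2 fold change of light over darkness (horizontal axis) for the 9 genes in each of the 4 strains, with bars of 1 SE. Id. 53983 (3.16), Id. 297969 (2.47) and Id. 299986 (1.21) lie to the right in the Δblr-2 panel, and no gene reaches 1 in the Δenv-1, Δblr-1 or WT panels.

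The pair with the strongest light response lay side by side. In the annotation of strain P1, Id. 297969 and Id. 53983 are adjacent genes, and so are Id. 179057 and Id. 94294. In all, 4 of the 8 placed genes were next to another of the 9, where 0.131% of the 10686 placed genes were next to one of them, and the number was again 4 within 2 and within 3 genes. Adjacent members were alike in their pattern. Id. 297969 and Id. 53983 were both high in Δblr-2 light, while Id. 179057 and Id. 94294 shared the highest library in all 8 groups and had no light response in any strain that passed the test. Gene order in P1 may differ from that in IMI 206040, whose assembly was not used here.

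Next to Id. 220212 lies Id. 40728, which met the ratio of the rule but not its level, with a mean of 4.76 CPM in the Δenv-1 mutant. Its levels were 4.52, 3.53 and 6.58 CPM in Δenv-1 light and 3.79, 6.11 and 4.04 CPM in Δenv-1 darkness, against 1.53, 1.15 and 1.16 CPM in WT light and 0, 2.68 and 0.701 CPM in WT darkness. Like Id. 220212 it was lower in Δblr-2 than in Δblr-1 in light, at 0.584 to 1.08 CPM against 4.61 to 7.18 CPM (log2 fold change -2.71 ± 0.53, adjusted p = 0.000326), but it did not pass the test in darkness (-0.71 ± 0.47, adjusted p = 0.329).

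Of the other neighbours within 3 genes of a member, 18 could be tested, and none passed the test between Δenv-1 and WT in light or darkness, with log2 fold changes from -0.62 to 0.56 in light and from -0.65 to 0.65 in darkness. With the replicate number as a block, 2 of them were higher in Δenv-1 in light, Id. 299599 and Id. 85752, and none changed its call in darkness. This fit of the neighbours and of the gene lists was added after the data were seen. Both genes that flank Id. 299986 were among the 18. One, Id. 163941, also rose with light in Δblr-2, with a log2 fold change of 1.75 ± 0.16 (adjusted p = 2.83e-08). Unlike Id. 299986, for which the values were 0.15 and -0.13, it also rose in Δenv-1 (0.70 ± 0.18, adjusted p = 0.0247), with 0.57 ± 0.17 in WT (adjusted p = 0.0523), and it did not pass the test between Δenv-1 and WT in light (0.22 ± 0.15, adjusted p = 0.390). The genes on both sides of Id. 301255 had log2 fold changes of Δenv-1 over WT of -0.04 (Id. 136464) and 0.22 (Id. 85752) in light.

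**Figure D5:**
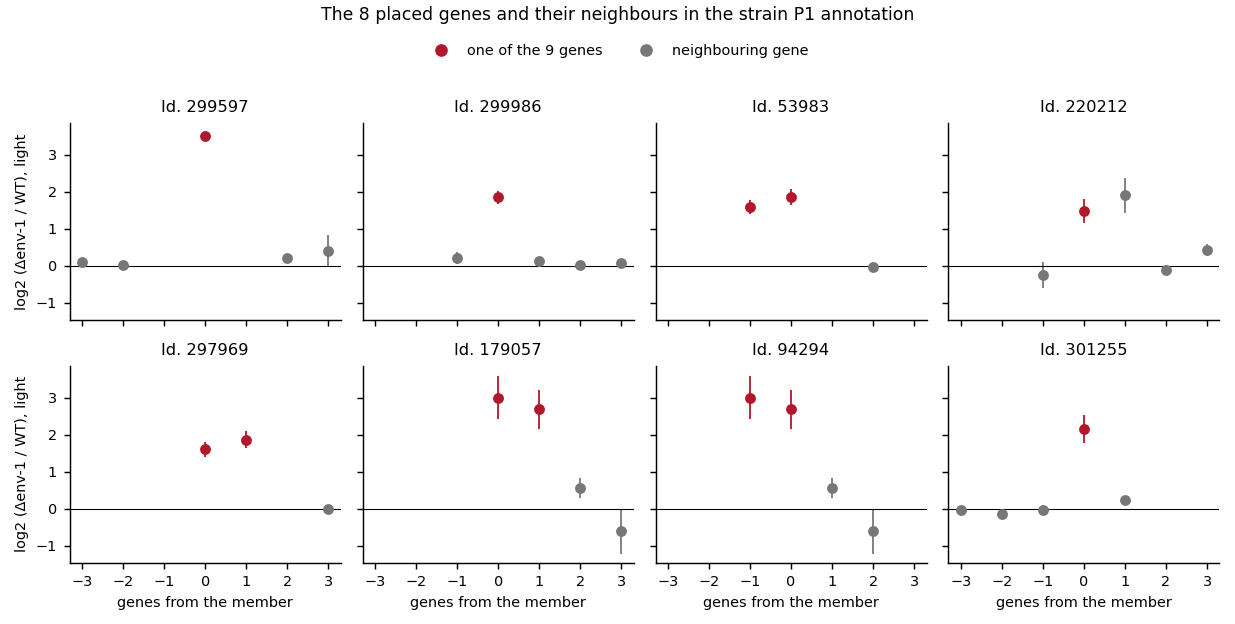
Fitted log2 fold change of Δenv-1 over WT in light (vertical axis, bars of 1 SE) for 8 of the 9 genes and the tested genes up to 3 places on each side (horizontal axis, in genes, in the order of the strain P1 annotation). Red points are among the 9 genes and grey points are not. Apart from the adjacent pairs and Id. 40728 beside Id. 220212, the grey points lie between -0.62 and 0.56.

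Among the pathway lists, the 6 photoreceptor and clock genes held 1 that was higher in Δenv-1 than in WT, both in light and in darkness. This was the transcript of env-1 itself, as described above. The other 5, which include the photolyase genes cry-1 and phr-1 and the clock gene frq, did not pass the test in either condition. Of 13 DNA metabolism genes 4 were higher in light and 1 in darkness, where 6.64% and 1.42% of all genes were higher. Of 4 sulfur and serine genes 1 was lower in light, or 2 with the replicate number as a block, where 8.81% of all genes were lower, and none passed the test in darkness, and the light reporters blu-1 and bld-2 were both higher in Δenv-1 in light and did not pass the test in darkness. None of the genes on these lists was among the 9. The mean profile of the 9 genes over the 12 Δblr-1 and Δblr-2 libraries, in log2(CPM + 0.5), had a Pearson correlation above 0.9 with 10 of 7886 other genes. The 5 most alike were Id. 313961 (0.92), Id. 300320 (0.92), Id. 150692 (0.92), Id. 296936 (0.91) and Id. 300029 (0.91). Of these, only Id. 150692 was low in WT, with averages of 11.2 CPM in Δenv-1, 13.8 in Δblr-1 and 8.85 in Δblr-2, against 3.94 in WT. Id. 313961 averaged 30.4 CPM in Δenv-1 and 28.2 CPM in WT. The averages in Δenv-1 and WT were also close for Id. 300320 (11.7 and 13.2 CPM), Id. 296936 (46.2 and 44.5 CPM) and Id. 300029 (245 and 232 CPM). The libraries share strain, depth and replicate, and the likeness is a description.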

How the data were processed

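The authors quantified reads with kallisto against the predicted transcripts, and the deposited values are estimated counts, neither normalized nor filtered. No version is given in the sources used here. Of 36 columns, 24 matched samples by name. The names of 12 matched none and were not used. Of the values, 8.33% were not whole (tolerance 1e-06) and were rounded. Genes were filtered with filterByExpr (minimum count 10), scaled by TMM and fitted with edgeR 4.0.16 (R 4.3.3), with 1 mean per strain and treatment over 23 libraries, the quasi-likelihood test and Benjamini-Hochberg adjustment over 9605 genes. SE is the log2 fold change over the root of F. The 9 genes and the lists were chosen with earlier results of these data known, and all 9 are named because the naming rule takes the 10 widest gaps. Other named genes are env-1, the 3 genes nearest outside the threshold, the 5 most alike and neighbours, of which Id. 40728 and those beside Id. 299986 and Id. 301255 were picked after their values were seen. The fit was also run on counts simulated without pairing of replicates, so that run does not cover pairing in these data. Replicate numbers come from the labels. Deviations of same-numbered libraries correlated at 0.181 to 0.351 in Δblr-1 and 0.256 to 0.611 in WT, between light and darkness, and over both treatments at 0.112 to 0.321 between Δblr-1 and WT and 0.102 to 0.438 between Δenv-1 and WT, so the numbers were taken to pair those samples. Libraries with different numbers reached 0.311 between light and darkness in WT, above the lowest value of same-numbered ones. They reached 0.155 between Δenv-1 and WT in darkness, so the pairing is not shown for every number. Between light and darkness in Δenv-1 (0.0854 to 0.264) and Δblr-2 (0.0490 to 0.178) not every pair exceeded 0.1. Replicate pairs all differed by more than sampling noise. DESeq2 1.42.0, other scalings, filters, thresholds, blocks and libraries left out were tried.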

Additional observations from a re-analysis of the deposited data

Results flagged for a closer look

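The light responses of 3 of the 9 genes differed between strains by a test of the difference itself (edgeR quasi-likelihood test of the interaction, adjusted p at most 0.05), in each case involving the Δblr-2 mutant. On the log2 scale, the light response of Id. 53983 in Δblr-2 minus that in WT was 3.15, Δblr-2 minus Δblr-1 3.28, and Δenv-1 minus Δblr-2 -3.0. For Id. 297969 the same differences were 2.68, 2.31 and -2.18. For Id. 299986 they were 1.35, 1.27 and -1.06. No difference between Δenv-1 and WT, Δblr-1 and WT or Δenv-1 and Δblr-1 passed the test for any of the 9. Groups of 3 libraries were too small for a check of single outlying samples.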

How the results depend on the processing

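The number of genes that met the rule was 35 at a ratio of 1, 5 at 1.5 and 2 at 2, 14 with TMM-scaled CPM, and 9 to 15 with each Δenv-1 or WT library left out. Without Δenv-1 light replicate 3, Id. 220212 no longer met the rule and Id. 53468 did. It was 11 and 6 at floors of 1 and 10 CPM and 9 with 0.1 or 1 added to the CPM. The counts of the 9 called in the light responses of Δenv-1, Δblr-1 and WT were 0 under every alternative run. So was the count whose light response differed between Δenv-1 and WT. The count in the light response of Δblr-2 was 3 under each. With a library left out, counts ranged from 4 to 9 for Δblr-1 against WT in darkness, were 9 in light, and ranged from 3 to 6 and 4 to 7 for Δblr-2 against WT in darkness and light. They were 4 for Δblr-2 against Δblr-1 in darkness and 4 to 6 in light. Leaving a library out lowers the number of samples. A replicate block (within strain for light, shared number between strains) changed no count: 3 genes in the light response of Δblr-2, 9 and 9 in Δblr-1 against WT. The call of Id. 299986 in Δblr-2 against WT in light held in 19 of 29 alternatives (log2 0.22 to 0.63, adjusted p 0.00807 to 0.306), and Id. 94294 there lost its call with DESeq2 (adjusted p = 0.0510) and without WT light replicate 3 (0.106). The cause was not tested. A planned search for a motif in promoters was not run, as no promoter sequence was used. Depth limits the WT levels of Id. 210245, which had 3 counts or fewer in 3 of 6 WT libraries, and of Id. 179057, with 0 counts in 1.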
